A study of Homo sapiens with 8 samples.

Results

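The S100 calcium-binding genes S100A2, S100A3, S100A4, S100A6, S100A10, S100A11, S100A13, S100A14, S100A16 and S100P (10 in all) were followed by symbol through 8 RNA-seq libraries of SUIT2, a human pancreatic ductal adenocarcinoma (PDA) cell line that expresses the homeobox transcription factor EN1. All 10 were matched to 1 gene number each among the 25702 genes listed in every library. Of the 8, 4 libraries carried a scramble shRNA (shScr) and 4 carried an shRNA against EN1, with 2 libraries for each of 2 constructs, written shEn1_1 and shEn1_2 in the labels and shEN1 #1 and shEN1 #2 here. SUIT2 is an established line labelled as epithelial cells, and the labels give no further genotype, no dose and no time after transduction. Whether the libraries of 1 label came from separate cultures is not stated, so p-values measure only the spread between these libraries. The comparison asks which transcripts differ when EN1 is targeted, and here how the S100 genes stood in it.

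S100 proteins are small calcium sensors found in vertebrates. Each has a pair of EF hands, the helix-loop-helix motif that holds calcium, and most work as dimers that open a binding face for a partner protein when calcium rises. Many of their genes lie side by side in the epidermal differentiation region of the long arm of chromosome 1, and several family members are raised in PDA, where S100A4, S100A6 and S100P in particular have been studied as markers of tumour cells and of their spread.

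The members covered the whole range from highly expressed to barely detected. S100A6, S100A10, S100A11 and S100A16 were high in all 8 libraries, S100A13 was intermediate, S100A4 was low, S100A2 was lower still, and S100A3, S100A14 and S100P had between 0 and 19 counts per library. No member passed the test between the shEN1 and shScr labels, for which 7 of the 10 had enough counts. The members instead differed from library to library. S100A4, S100A6 and S100A16 were lowest in the same 2 libraries, shScr replicate 4 and shEN1 #2 replicate 1, which carry opposite labels.

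Depth was similar, at 33423590 to 37810604 counts per library. Levels are given as CPM, a gene's counts relative to its library's total, after scaling with TMM factors that lay between 0.962 and 1.07. EN1 itself did not separate the labels. It stood at 4.10, 4.50, 4.93 and 2.51 CPM in shScr replicates 1 to 4, at 5.77 and 5.41 CPM in the 2 shEN1 #1 libraries and at 1.35 and 6.70 CPM in the 2 shEN1 #2 libraries. The log2 fold change was 0.26 ± 0.43 (SE), with p = 0.543 in a two-sided exact permutation test (70 ways to split the 8 libraries), whose smallest possible p is 0.0286. Without the 2 libraries that stand apart, named next, it was 0.40. Because the targeted transcript was not lower on average under the shEN1 label, shEN1 stands below for the libraries labelled so. The paper itself reports depletion of EN1 in SUIT2 with 2 shRNA constructs, measured by RT-qPCR. On the first principal component, which held 44.4% of the variance of all tested genes, shScr replicate 4 and shEN1 #2 replicate 1 lay at 59.2 and 62.1 while the other 6 libraries lay between -27.6 and -9.15. These 2 libraries were not the same library deposited again, since their counts differed by a chi-square of 10.2 per gene where sampling noise gives about 1. This was nevertheless the smallest value of the 28 pairs of libraries, the next being 20.8 and the largest 125.7. Epithelial markers (EPCAM, KRT8, KRT18, KRT19, CDH1 and CLDN4) were present everywhere, with summed levels of 11497 to 14983 CPM in shScr and 11148 to 17685 CPM in shEN1, and 0 of the 6 were called. Of the 19 markers of leukocytes, endothelium, fibroblasts, squamous and acinar cells, 5 were tested and 0 were called. Of all 14333 tested genes 0 were called too, so these counts of calls say nothing particular about the markers. Among the markers of leukocytes, endothelium and fibroblasts, PTPRC, CD3E, CDH5, COL1A2, DCN and LUM had 0 counts in every library. Others were detected, with COL1A1 at 34 to 139 counts per library and CD14, PECAM1, VWF and PDGFRB at 0 to 34. The lysosomal protein gene CD68 stood at 8.38 CPM in shScr replicate 4, 7.74 CPM in shEN1 #2 replicate 1 and 16.7 to 34.6 CPM elsewhere.

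Of the 10 genes, 9 lie on chromosome 1 (GRCh37, the build given as hg19 in the study's methods, with GENCODE positions). They span 151955391 to 153603836, a stretch of 1648 kb, all on the minus strand. S100A10 (151955391 to 151966335) and S100A11 (152004982 to 152020383) stand at the lower end. The other 7 fall within 96.8 kb, in the order S100A6, S100A4 with S100A3 inside its span, S100A2, S100A16, S100A14 and S100A13. S100P lies alone on chromosome 4 (6695605 to 6698897, plus strand). The counting is not stated to use strand, and S100A13 shares 235 exon bases with S100A1 on the opposite strand, so reads of these 2 genes in that stretch cannot be told apart.

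The bases upstream of the starts are shown for S100A4, S100A6 and S100A16, which were picked for their low levels in 2 libraries. They are also shown for the 2 highly expressed genes that varied least (S100A10 and S100A11). S100A2, S100A10 and S100A11 were lowest in the same 2 libraries too, S100A10 only after TMM scaling. Each sequence is the 250 bases before the first-listed RefSeq start in GRCh38.p14, read 5′ to 3′ on the gene's strand. Capitals mark matches, on either strand, to any of 5 motifs. These were the TATA box, searched as TATAAA, the GC box, searched as GGGCGG, and the CCAAT box, searched by the letters of its name. The AP-1 site was searched as TGANTCA, and a core bound by many homeodomain proteins as TAATTA. Overlapping matches run together.
S100A4, chr1:153545807-153546056, minus strand: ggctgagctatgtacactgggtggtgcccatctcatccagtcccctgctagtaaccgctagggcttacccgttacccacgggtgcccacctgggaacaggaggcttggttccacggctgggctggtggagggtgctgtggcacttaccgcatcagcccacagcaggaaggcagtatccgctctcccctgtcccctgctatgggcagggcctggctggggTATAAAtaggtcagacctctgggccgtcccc
S100A6, chr1:153535992-153536241, minus strand: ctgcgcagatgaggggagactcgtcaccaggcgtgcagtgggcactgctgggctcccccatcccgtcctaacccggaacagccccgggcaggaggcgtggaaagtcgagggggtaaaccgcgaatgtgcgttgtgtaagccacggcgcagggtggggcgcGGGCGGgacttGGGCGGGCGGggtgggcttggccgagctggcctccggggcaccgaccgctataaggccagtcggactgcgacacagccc
S100A16, chr1:153613138-153613387, minus strand: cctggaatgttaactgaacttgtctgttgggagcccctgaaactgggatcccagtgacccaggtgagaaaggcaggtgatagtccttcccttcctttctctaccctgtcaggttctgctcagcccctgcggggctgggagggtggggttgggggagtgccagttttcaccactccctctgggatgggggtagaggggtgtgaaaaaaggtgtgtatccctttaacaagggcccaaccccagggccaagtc
S100A10, chr1:151993860-151994109, minus strand: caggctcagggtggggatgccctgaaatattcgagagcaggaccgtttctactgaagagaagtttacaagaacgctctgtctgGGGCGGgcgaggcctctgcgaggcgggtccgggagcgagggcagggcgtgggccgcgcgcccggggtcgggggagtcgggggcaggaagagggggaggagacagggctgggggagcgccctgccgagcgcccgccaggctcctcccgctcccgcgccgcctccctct
S100A11, chr1:152037005-152037254, minus strand: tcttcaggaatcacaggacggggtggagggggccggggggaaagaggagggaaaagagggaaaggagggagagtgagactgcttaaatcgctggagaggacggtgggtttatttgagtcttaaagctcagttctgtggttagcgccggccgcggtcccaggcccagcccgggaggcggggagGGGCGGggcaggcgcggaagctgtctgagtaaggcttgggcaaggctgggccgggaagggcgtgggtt
S100A4 held a TATA box 31 to 26 bases before its start, a motif found in 10.7% of the 35116 windows of this length. S100A6, S100A10 and S100A11 held no exact TATAAA. They held GC boxes, 3 in S100A6 and 1 each in the other genes, as did 42.6% of all windows. Near matches, such as the tataag in the S100A6 window, were not counted. The first window of S100A16 held none of the 5 motifs, while its second window, further downstream, held 1 GC box and 2 CCAAT boxes. Among the genes not printed, S100A2 and S100A3 each held 1 AP-1 site (6.57% of all windows), and S100P and the second window of S100A13 each held a TATA box. TAATTA was absent from all 14 member windows and present in 4.35% of all windows. None of the 5 motifs was in all 3 windows printed for S100A4, S100A6 and S100A16. A link between motifs and levels was not tested.

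**Figure D1:**
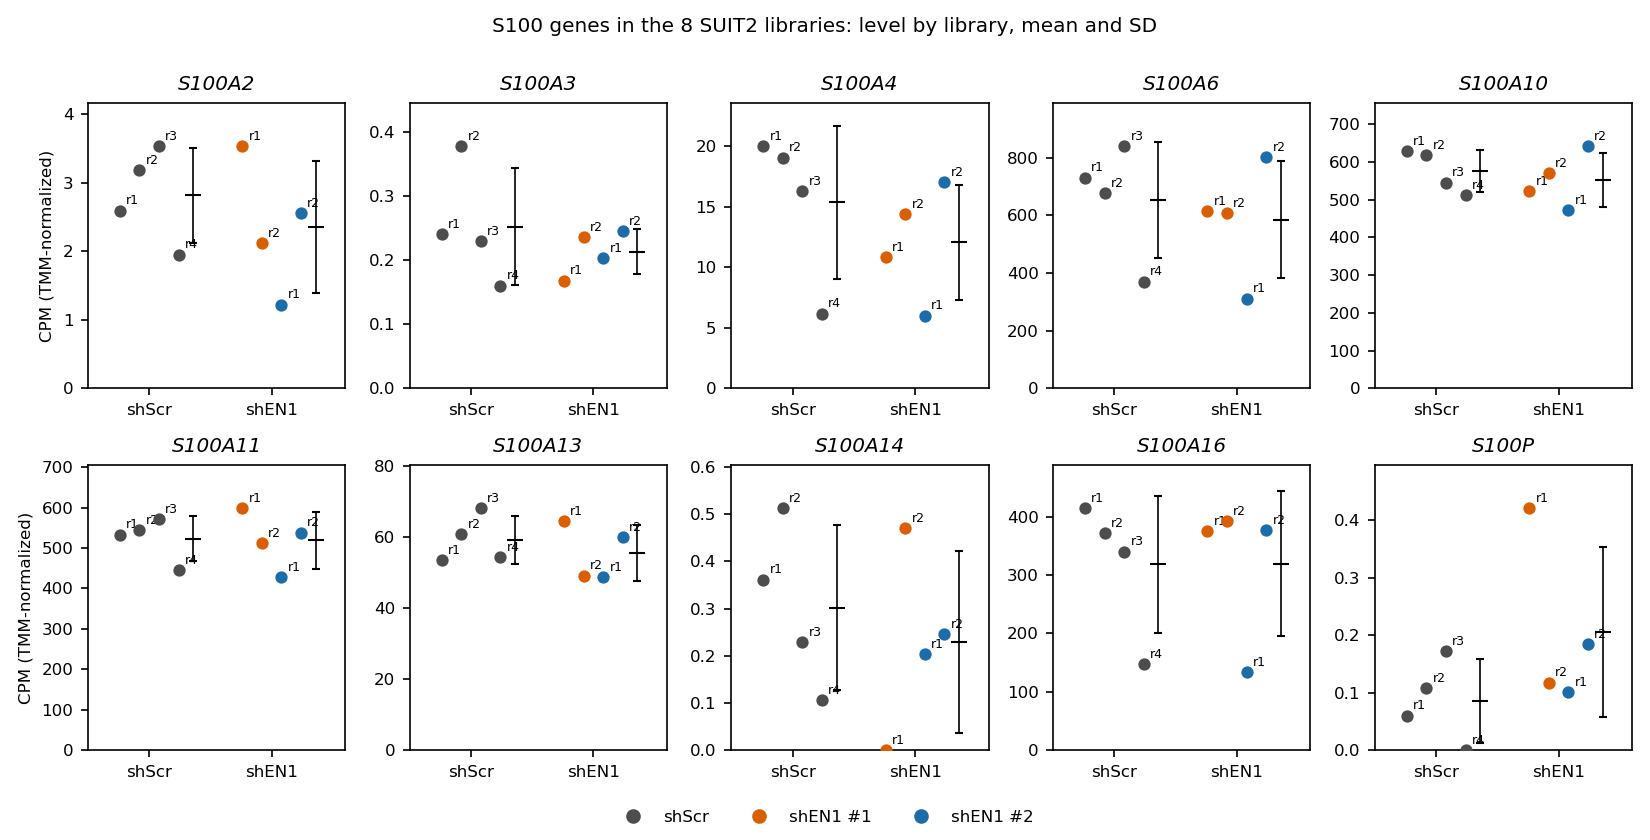
Level of each S100 gene in CPM (linear axes that start at 0 and differ between panels), with 1 point per library, coloured by construct and marked with its replicate number, and beside each label the mean with an error bar of 1 SD (n = 4). The points of shScr and shEN1 overlap in all 10 panels, and the lowest points of S100A4, S100A6 and S100A16 are shScr replicate 4 and shEN1 #2 replicate 1.

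To order the genes by level, counts were divided by exon length as well, giving CPM per kilobase. S100A11 was highest at a mean of 803 ± 89.6 CPM per kilobase (SD, n = 8), followed by S100A6 at 638 ± 197 and S100A10 at 557 ± 60.5. The ranges of these neighbours overlapped, so their order is not settled by the 8 libraries. S100A16 followed at 187 ± 65.8 CPM per kilobase, S100A13 at 25.9 ± 3.19, S100A4 at 14.5 ± 5.80 and S100A2 at 1.67 ± 0.526. From S100A10 down to S100A2 the library ranges of neighbours did not overlap, except that S100A2 reached into the range of S100P. S100P, S100A3 and S100A14 lay at 0.309 ± 0.266, 0.276 ± 0.0798 and 0.208 ± 0.137 CPM per kilobase and could not be ordered. Exon lengths came from GENCODE, and the annotation used for counting is not given in the sources used here, so levels between genes carry that uncertainty. The 10 genes together took 0.150% to 0.238% of all counts, with the lowest shares, 0.150% and 0.164%, in shEN1 #2 replicate 1 and shScr replicate 4.

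**Figure D2:**
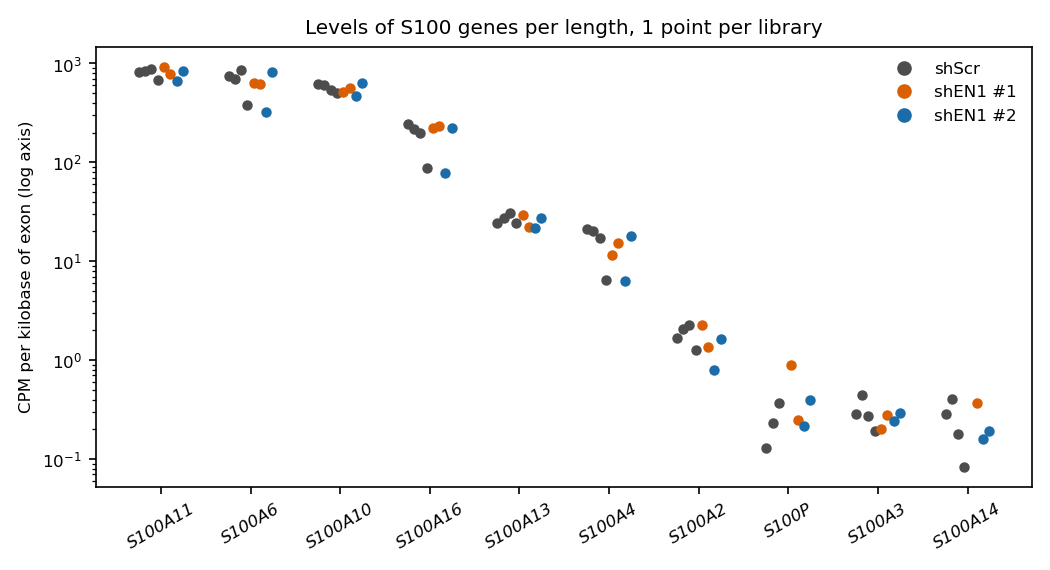
CPM per kilobase of exon for the 10 S100 genes on a log axis, ordered by mean, with 1 point per library and colours for shScr, shEN1 #1 and shEN1 #2. The values run from about 921 for S100A11 to below 0.1 for S100A14, and 2 libraries at 0 counts (shScr replicate 4 for S100P and shEN1 #1 replicate 1 for S100A14) are not drawn.

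Over all genes of the count tables, 14333 passed the filter on low counts and were tested with edgeR's quasi-likelihood test, with p-values adjusted by the Benjamini-Hochberg method. Between shEN1 and shScr 0 genes (0% of those tested) had an adjusted p below 0.05, and 44 (0.307%) had an unadjusted p below 0.05. DESeq2 called 2 genes and limma-voom 0, none of them an S100 gene. Of the 7 tested members 0 were called and 0 had an unadjusted p below 0.05. The log2 fold change was above 0 for 1 of the 7 members and below 0 for 6, where 48.9% of all tested genes lay above 0, and its median was -0.091 over the members and -0.0028 over all tested genes. The libraries of the labels overlapped in every one of the 7 members, and they did not overlap in 0.419% of all tested genes. The adjusted p was 1.00 for each of the 7 members in edgeR. The paper, by contrast, reports differentially expressed genes in both directions after EN1 knockdown in SUIT2, with DESeq2 as its tool. Its text states no threshold for SUIT2, and the difference from the calls here was not traced.

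S100A4 binds non-muscle myosin and is best known as a protein of migrating cells. It stood at 20.001, 19.1, 16.3 and 6.16 CPM in shScr replicates 1 to 4, at 10.8 and 14.4 CPM in the shEN1 #1 libraries and at 6.02 and 17.02 CPM in the shEN1 #2 libraries. The 2 highest levels were shScr and the next was shEN1 #2 replicate 2, and 1 library of each label lay near 6 CPM. The log2 fold change was -0.35 ± 0.40 (SE), with a 95% interval from -1.24 to 0.53 and p = 0.400 in the exact permutation test. Without shScr replicate 4 and shEN1 #2 replicate 1 it was -0.39 ± 0.20, with an unadjusted p of 0.066 in edgeR. The adjusted p was then 1.00. Without shScr replicate 4 alone the log2 fold change was -0.61, and without shEN1 #2 replicate 1 alone -0.13. With every library in, the value of -0.35 was the lowest log2 fold change of the 7 tested members.

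S100A6, also called calcyclin, binds CACYBP and several annexins and is abundant in dividing epithelial cells. Its levels were 731, 677.3, 840 and 370.4 CPM in shScr replicates 1 to 4, 615.5 and 608.4 CPM in shEN1 #1 and 311.4 and 803.3 CPM in shEN1 #2. Each label held 1 library far below its other 3. Between the labels it differed by a log2 fold change of -0.16 ± 0.31 (SE; exact permutation p = 0.629), and without the 2 low libraries it was -0.15 ± 0.15.

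S100A16, a member expressed in many tissues and raised in several cancers, had the clearest gap between libraries. It was measured at 413.8, 371.4, 339.9 and 147.5 CPM in shScr replicates 1 to 4, at 375.4 and 391.9 CPM in shEN1 #1 and at 134.0 and 376.1 CPM in shEN1 #2. The 2 low libraries thus stood at 134.0 and 147.5 CPM and the other 6 between 339.9 and 413.8 CPM. Between the labels the log2 fold change was 0.0053 ± 0.38 (SE; exact permutation p = 0.943). It was 0.020 ± 0.13 without the 2 low libraries, so that the standard error fell while the difference stayed near 0.

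S100A2, an epithelial member, was detected at 48 to 126 counts per library. Its levels were 2.59, 3.18, 3.53 and 1.95 CPM in shScr replicates 1 to 4, 3.53 and 2.12 CPM in shEN1 #1 and 1.22 and 2.55 CPM in shEN1 #2. Both labels reached the same highest level, and shEN1 #2 replicate 1 was lowest. This gave a log2 fold change of -0.26 ± 0.36 (SE; exact permutation p = 0.486), and -0.19 ± 0.32 without shScr replicate 4 and shEN1 #2 replicate 1.

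S100A10 differs from its relatives in that it does not need calcium to bind its partner annexin A2, with which it forms a complex at the plasma membrane that holds plasminogen. It stood at 629.1, 617.6, 544.7 and 512.8 CPM in shScr replicates 1 to 4, at 522.1 and 569.4 CPM in shEN1 #1 and at 472.1 and 641.1 CPM in shEN1 #2. The highest and the lowest library both belonged to shEN1 #2. Its log2 fold change was -0.064 ± 0.13 (SE), with a 95% interval from -0.35 to 0.22 and an exact permutation p of 0.629, and without shScr replicate 4 and shEN1 #2 replicate 1 it was -0.051 ± 0.13.

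S100A11, a partner of annexin A1, was as even. Its levels were 532.9, 544.9, 570.9 and 445.1 CPM in shScr replicates 1 to 4, 597.7 and 512.4 CPM in shEN1 #1 and 428.9 and 538.1 CPM in shEN1 #2. The labels had means of 523.4 ± 54.6 CPM and 519.3 ± 70.03 CPM (SD, n = 4 each). Their log2 fold change was -0.012 ± 0.13 (SE; 95% interval -0.30 to 0.28, exact permutation p = 0.914), and -0.0038 ± 0.12 without the 2 libraries that stand apart.

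S100A13, which takes part in the release of FGF1 and IL1A from cells, was the third even member. It was measured at 53.4, 60.8, 68.0 and 54.3 CPM in shScr replicates 1 to 4, at 64.3 and 49.1 CPM in shEN1 #1 and at 48.6 and 60.0 CPM in shEN1 #2. Its 2 lowest libraries were both shEN1 but of different constructs. The log2 fold change was -0.091 ± 0.13 (SE; 95% interval -0.39 to 0.21, exact permutation p = 0.486), and -0.075 ± 0.15 without shScr replicate 4 and shEN1 #2 replicate 1. Its overlapping neighbour S100A1 had at most 1.04 CPM, and the 2 cargo genes were low, with 4 counts of FGF1 and 64 of IL1A over all 8 libraries.

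The remaining 3 members did not pass the filter in the fit of all 8 libraries. S100A3, a cysteine-rich protein of the hair cuticle, had 8, 14, 8 and 6 counts in shScr, 6 and 8 in shEN1 #1 and 8 and 8 in shEN1 #2 (exact permutation p = 0.600). S100A14, an epithelial member, had 12, 19, 8 and 4 counts in shScr, 0 and 16 in shEN1 #1 and 8 and 8 in shEN1 #2 (exact permutation p = 0.600). The library at 0 allows up to 3 counts, or 0.0818 CPM. S100P, a member raised in many pancreatic tumours and a ligand of the receptor AGER, had 2, 4, 6 and 0 counts in shScr, 15 and 4 in shEN1 #1 and 4 and 6 in shEN1 #2. Its shScr library at 0 allows up to 0.0851 CPM. The summed S100P counts were 12 in shScr and 29 in shEN1 (exact permutation p = 0.171), and 12 and 14 when the library with 15 counts was left out. With no filter on low counts edgeR gave log2 fold changes of -0.23 ± 0.72 (SE) for S100A3, -0.39 ± 0.97 for S100A14 and 1.26 ± 1.07 for S100P, each with an adjusted p of 1.00. Without shScr replicate 4 and shEN1 #2 replicate 1, S100A14 passed the filter and stood at -0.63 ± 0.92 (adjusted p = 1.00 in edgeR). Differences between labels in these 3 genes were not detectable at this depth. The limits given for libraries at 0 cover counting error only, while the standard errors also hold the spread between libraries.

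Each construct was also set against shScr, in a fit of 3 groups. For shEN1 #1 against shScr 0 genes were called (0% of those tested; 0.656% had an unadjusted p below 0.05), and 0 of the 7 members. The members' log2 fold changes lay between -0.29 ± 0.52 (SE) for S100A4 and 0.27 ± 0.46 for S100A16, with 3 above 0. For shEN1 #2 against shScr 0 genes were called (0%; 0.300% unadjusted), again with 0 of the 7 members. All 7 log2 fold changes were below 0 here, from -0.050 ± 0.17 for S100A10 to -0.58 ± 0.44 for S100A2, with S100A4 at -0.42 ± 0.52, S100A16 at -0.32 ± 0.48 and S100A6 at -0.23 ± 0.40. That sign rested on replicate 1. Without it the log2 fold change of shEN1 #2 against shScr was above 0 for 6 of the 7, including S100A4 at 0.13, S100A6 at 0.28 and S100A16 at 0.23. The low shScr replicate 4 stayed in that fit, which raises these values. The remaining library, shEN1 #2 replicate 2, lay within the range of shScr replicates 1 to 3 in S100A4 (17.02 CPM against 16.3 to 20.001), S100A6 (803.3 against 677.3 to 840) and S100A16 (376.1 against 339.9 to 413.8). It lay above that range in S100A10 and just below it in S100A2. The constructs share the shScr libraries. Set against each other they gave 0 calls (0%; 1.07% unadjusted) and log2 fold changes from -0.59 ± 0.54 for S100A16 and -0.59 ± 0.50 for S100A2 to 0.029 ± 0.19 for S100A10. Each adjusted p of a member in these 3 contrasts was 1.00 in edgeR, DESeq2 called 3 genes for shEN1 #1 and 0 in the other 2 contrasts, and none of these was an S100 gene.

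**Figure D3:**
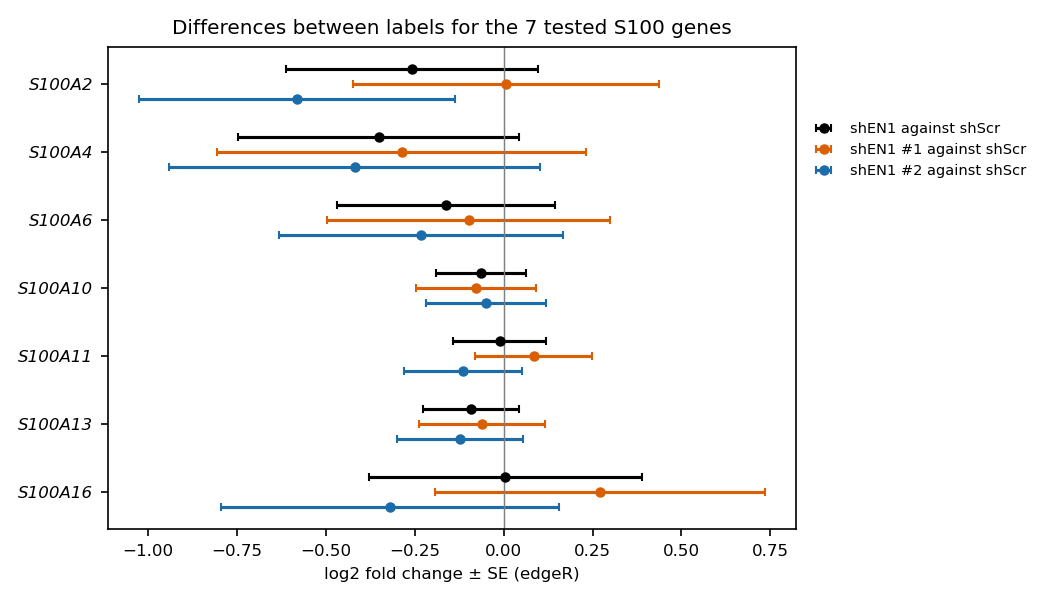
Log2 fold change with its standard error (edgeR) for the 7 tested S100 genes, for shEN1 against shScr (black), shEN1 #1 against shScr (orange) and shEN1 #2 against shScr (blue). S100A10, S100A11 and S100A13 sit near 0 with standard errors of 0.13 in the pooled comparison, and S100A2, S100A4, S100A6 and S100A16 have standard errors of 0.31 to 0.40.

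The 7 tested members fell into an even and a variable set by their spread over libraries. The highest library exceeded the lowest by more than 2-fold in 4 of the 7, where 35.4% of all tested genes did so: 3.32-fold in S100A4, 3.09-fold in S100A16, 2.90-fold in S100A2 and 2.70-fold in S100A6. In S100A10, S100A11 and S100A13 the ratio was 1.36, 1.39 and 1.40. The SD of log2 CPM was 0.69 in S100A4 and 0.67 in S100A16, above that of 87.7% and 86.6% of tested genes, and 0.16 in S100A10, above that of 19.1%. The share of this variance that lay between the labels was 0.013% to 10.99% in the 7 members, and its median over all tested genes was 2.24%.

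Most members had their lowest levels in the same place. In 6 of the 7 tested members shScr replicate 4 and shEN1 #2 replicate 1 were the 2 lowest libraries, which was so for 19.2% of all tested genes. S100A13 was the exception. The 2 libraries also had the highest TMM factors, and when CPM was computed on library totals alone S100A10 no longer showed this order, leaving 5 of the 7 members and 12.9% of tested genes. Within these libraries S100A16 fell out of step with S100A10: the ratio of their counts was 0.284 in shEN1 #2 replicate 1 and 0.288 in shScr replicate 4, and 0.587 to 0.719 in the other 6, a measure on which the scaling has no bearing. The ratio of S100A6 to S100A10 was 0.659 and 0.722 in these 2 libraries and 1.07 to 1.54 in the others. EN1 was lowest in them as well, at 1.35 CPM in shEN1 #2 replicate 1 and 2.51 CPM in shScr replicate 4 against 4.10 to 6.70 CPM elsewhere. Of the 6 epithelial markers, KRT19, EPCAM, CDH1 and CLDN4 were also lowest in these 2 libraries, with KRT19 at 320.7 CPM in shEN1 #2 replicate 1 and 400.1 CPM in shScr replicate 4 against 831.2 to 1648 CPM elsewhere, and EPCAM at 240.8 and 234.2 CPM against 365.8 to 589.2 CPM. KRT8, at 6363 and 6483 CPM, and KRT18, at 4216 and 4252 CPM, lay within the range of the other 6, and so did the summed level of 11265 and 11522 CPM, which was mostly these 2 keratins. The part of these differences in the S100 levels was not tested, and in bulk RNA fewer cells of a type and less RNA per cell cannot be told apart.

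**Figure D4:**
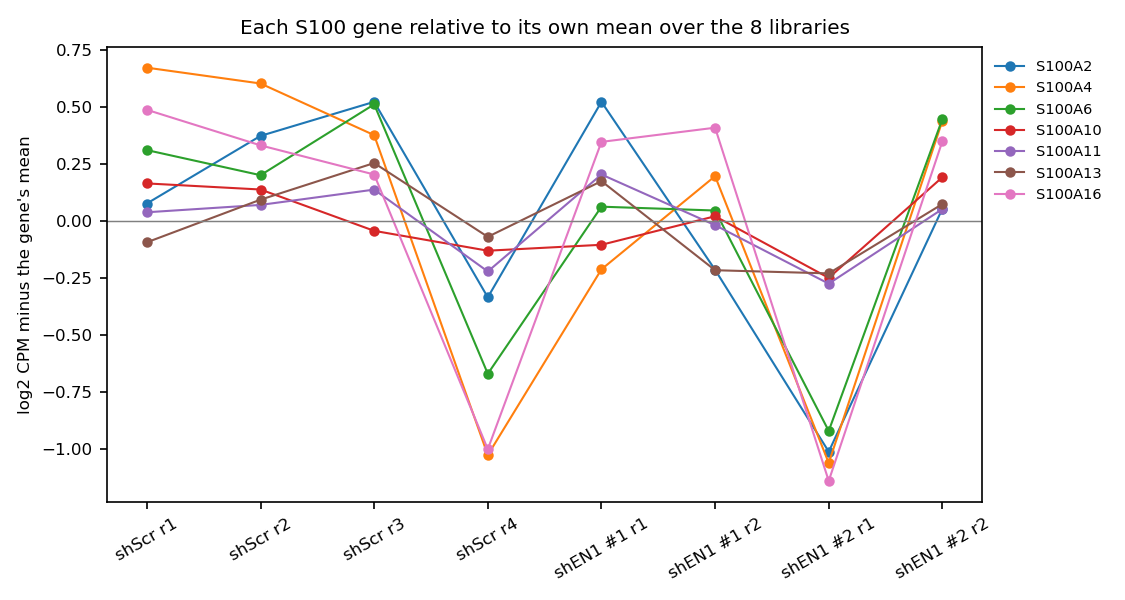
Log2 CPM of each tested S100 gene minus that gene's mean over the 8 libraries, by library, with lines joining the points of 1 gene. S100A4 and S100A16 fall by about 1 on the log2 scale in shScr replicate 4 and shEN1 #2 replicate 1, and S100A10, S100A11 and S100A13 stay within about 0.3 of their means in all libraries.

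Over the 8 libraries the levels of the members were correlated to different degrees, as a description of libraries that share a cell line and in which 2 libraries stand apart. Pearson's r of log2 CPM was 0.94 for S100A2 with S100A11, 0.93 for S100A4 with S100A6, 0.92 for S100A4 with S100A16 and 0.92 for S100A6 with S100A16. The lowest of the 21 pairs was S100A10 with S100A13 at 0.22. The pair with the highest value is not a pair of neighbours, since S100A11 lies more than 1000 kb from S100A2. Among all tested genes the most alike to S100A16 was ACSL5, an enzyme that activates fatty acids, at 0.995, and next came SLC18B1 at 0.994 and RAB25, a GTPase of epithelial membrane traffic, at 0.993. RAB25 stood at 39.4 CPM in shScr replicate 4 and 35.4 CPM in shEN1 #2 replicate 1 and between 81.5 and 94.7 CPM elsewhere. The lysosomal protease CTSH was most like S100A4 (0.987), the ribosomal protein gene RPS3 most like S100A6 (0.990), the transcription factor gene FOXA3 most like S100A10 (0.970), OCIAD2 most like S100A11 (0.993), RPS23 most like S100A13 (0.984) and SEM1 most like S100A2 (0.984).

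**Figure D5:**
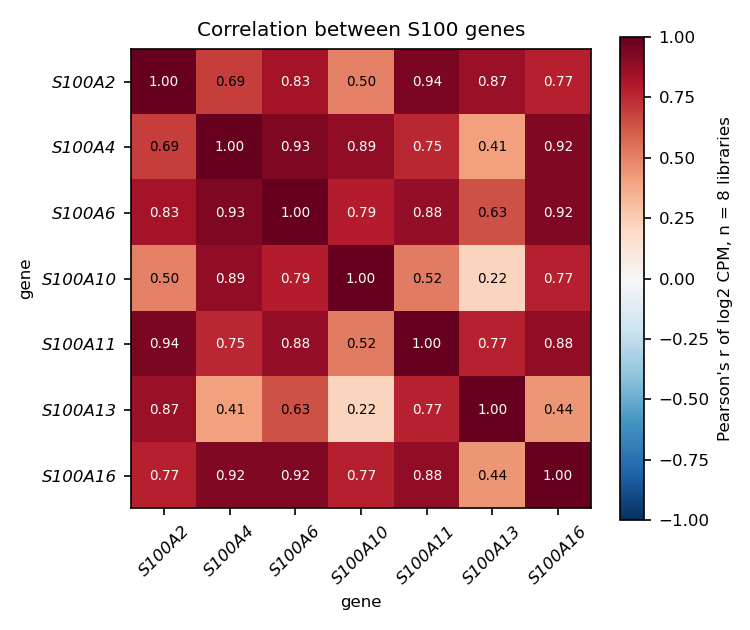
Pearson's r of log2 CPM between the 7 tested S100 genes over the 8 libraries, on a colour scale from -1 to 1. S100A4, S100A6 and S100A16 form the block with values of 0.92 to 0.93, and S100A10 with S100A13 is lowest at 0.22.

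The nearest tested genes outside the family did not share the low libraries uniformly. CHTOP, which encodes a chromatin protein and is the nearest tested gene above the group of 7 members, starts 2.62 kb beyond S100A13 and lay between 81.0 and 101.1 CPM in all 8 libraries. Its r with the tested members of that group was between -0.034 and 0.59. On the lower side the nearest tested gene was FLG, the epidermal protein filaggrin, which lies 1209 kb or more away. It stood at 7.26 CPM in shScr replicate 4 and 5.99 CPM in shEN1 #2 replicate 1 and 0.168 to 1.44 CPM elsewhere, so it was high in the libraries where S100A16 was low. THEM4, 73.3 kb from S100A10, did share them, at 13.4 CPM in shEN1 #2 replicate 1 and 16.2 CPM in shScr replicate 4 against 19.3 to 21.2 CPM elsewhere. Its r was 0.86 with S100A11 and 0.76 with S100A10. MRFAP1, 51.1 kb from the barely detected S100P, stood at 425.4 to 470.5 CPM.

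The other 10 genes of the family were at or near 0. S100A7, S100A7A, S100A8, S100A9, S100A12, S100B, S100G and S100Z had 0 counts in all 8 libraries. These include the subunits of calprotectin, S100A8 and S100A9, which myeloid cells make in bulk. S100A5 had 16 counts in all. S100A1 was tested at 0.689 ± 0.370 CPM in shScr and 0.902 ± 0.154 CPM in shEN1 (SD, n = 4 each), with a log2 fold change of 0.38 ± 0.47 (SE).

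Among 20 genes for proteins that S100 members bind, modify or are sensed by, 17 were tested. Between shEN1 and shScr 9 had a log2 fold change above 0 and 8 below 0, with a median of 0.0084. Of the 17, 0 were called, where 0 of all 14333 tested genes were. The partners of S100A10 were the most abundant, ANXA2 at 1887 ± 235 CPM in shScr and 1879 ± 291 CPM in shEN1, and AHNAK, a giant scaffold protein, at 1395 ± 263 and 1630 ± 376 CPM (log2 fold change 0.22 ± 0.19, SE). MYH9, the myosin heavy chain bound by S100A4, stood at 1041 ± 112 and 1136 ± 186 CPM. ANXA1, the partner of S100A11, stood at 170.6 ± 44.6 and 181.6 ± 58.4 CPM. For S100A6 the values were 230.7 ± 14.001 and 233.8 ± 22.04 CPM in CACYBP, and 321.6 ± 17.6 and 316.9 ± 44.5 CPM in ANXA11. Partner transcripts thus stood at 100 CPM or more in both labels for S100A4, S100A6, S100A10 and S100A11. Those linked to S100P were also present, although the gene itself was near 0: EZR at 584.7 ± 93.0 and 576.5 ± 49.0 CPM, IQGAP1 at 367.9 ± 52.0 and 381.8 ± 27.2 CPM and S100PBP at 20.6 ± 2.05 and 18.6 ± 1.09 CPM. The receptor AGER had 2 counts in all 8 libraries together. ANXA6, another calcium-dependent membrane binder, followed the 2 libraries that stand apart rather than the labels, in the direction opposite to S100A16. It was at 52.6 CPM in shScr replicate 4 and 53.9 CPM in shEN1 #2 replicate 1, and at 5.25 to 11.5 CPM in the other 6. ANXA6 was singled out among the partners after its values were seen, and 18.8% of all tested genes were highest in these 2 libraries.

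All 12 other EF-hand calcium sensors on the list, among them the calpain small subunit gene CAPNS1 and the sorcin gene SRI, were tested. Of these, 4 had a log2 fold change above 0 and 8 below 0, with values from -0.081 to 0.10 and a median of -0.010. Calls were 0 of the 12, where 0 of all 14333 tested genes were called. Their summed level lay between 2941 and 3098 CPM in shScr and between 2910 and 3229 CPM in shEN1. EFHD2, named after its values were seen, was low in the same libraries as S100A16. It stood at 143.5 CPM in shEN1 #2 replicate 1 and 153.2 CPM in shScr replicate 4 against 275.3 to 387.0 CPM elsewhere. CIB1, RCN1 and SDF4 were also lowest in these 2 libraries, by smaller margins, RCN1 and SDF4 only after TMM scaling. CALM3 and, narrowly, CAPNS1 were highest there, with CALM3 at 581.2 and 640.5 CPM against 327.1 to 551.6 CPM elsewhere. Of all tested genes, 19.2% were lowest and 18.8% highest in these 2 libraries.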

How the data were processed

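RNA was purified from SUIT2 cells and libraries were prepared and sequenced by a commercial provider. The authors aligned paired-end reads with HISAT2 and deposited whole-number read counts per gene from featureCounts, with no normalization. The study's methods name hg19, the submitters' processing notes name mm9, and neither the annotation, the strand setting nor the tool versions are given in the sources used here. The listed genes are human, so GRCh37 positions were used. Of 25702 gene numbers, 23696 matched a symbol, and the rest held 0.214% to 0.257% of a library's counts.

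Low genes were removed by filterByExpr at a minimum count of 10, which left 14333. TMM scaling was followed by the quasi-likelihood test of edgeR 4.0.16 (robust glmQLFit, then glmQLFTest) in R 4.3.3. A gene was called when its adjusted p (Benjamini-Hochberg) was under 0.05. DESeq2 1.42.0 and limma 3.58.1 were alternatives. The code was tested on simulated data with a spread set below that of these libraries, so that test does not show what could be detected here. Log2 CPM used a prior count of 2. Permutation tests used scipy 1.17.1. Constructs were pooled, and also fitted as 3 groups. The study plots both constructs together with scramble, and its methods do not state how they were combined. Replicate numbers were not taken to pair libraries (correlations of deviations -0.33 to 0.44). The members, lists and doubted libraries were chosen with earlier results of these data known. The genes named were the 10 members, EN1, the family and partner lists, neighbours and, per member, the genes most like it. Some listed genes are not reported here by name.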

Additional observations from a re-analysis of the deposited data

Results flagged for a closer look

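In libraries labelled shEN1, 1 value among the S100 levels stood far from the other 3 by Dixon's criterion. S100A16 was at 134.0 CPM in shEN1 #2 replicate 1, with a gap to the next library of 0.936 of the whole range, above the critical value for 4 samples at the 95% level. The TMM factor of the same library, 1.07, was also apart from the other 3, with a gap of 0.929 of the range. Across the 28 groups of 4 values looked at, chance gives about 1.4 such cases.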

How the results depend on the processing

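No S100 gene passed an adjusted p of 0.05 in any setting. The members' lowest adjusted p over all settings and tools was 0.503 for shEN1 against shScr and 0.728 in the other 3 contrasts. Whether replicate numbers mark shared cultures is not stated. The block fits replicate number and so keeps 6 libraries, without shScr replicates 3 and 4. It gave 1 call for shEN1 against shScr and 1 for shEN1 #1 against shScr. DESeq2 gave 2 and 3, and no filter gave 1 for shEN1 #1 against shScr. Unadjusted counts were 44, 94 for shEN1 #1, 43 for shEN1 #2 and 153 between constructs. For shEN1 against shScr the unadjusted count was 278 under the block and 1512 without shScr replicates 3 and 4, shEN1 #1 replicate 1 and shEN1 #2 replicate 1. Leaving out libraries gave 0 to 1 calls for shEN1 against shScr and for shEN1 #1 against shScr, and 0 in the other 2 contrasts. For shEN1 #1 the call appeared without shEN1 #1 replicate 2 and without shEN1 #2 replicate 1. The call in shEN1 against shScr appeared without shScr replicate 4, without shScr replicate 4 and shEN1 #2 replicate 1, without these and the other doubted pair (shScr replicate 3 and shEN1 #1 replicate 1), and, in an alternative chosen after seeing the data, without shScr replicates 3 and 4, and none of these calls was an S100 gene.

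Of the recomputed log2 fold changes of members and EN1, 37 changed sign and 375 did not. For shEN1 against shScr, S100A16 turned to -0.014 with limma-voom and to -0.34 under the block. Without shScr replicates 3 and 4 and with no block it was -0.30. S100A4 was -0.79 under the block and -0.70 without these 2 libraries and no block. Under the block its unadjusted p was 0.030 in edgeR, the only 1 below 0.05 among 160 fits of members for this contrast. For shEN1 #1 against shScr, S100A2 turned to -0.024 on library totals and S100A16 to -0.051 under the block. With libraries left out, shEN1 against shScr ranged from -0.70 to -0.13 for S100A4, -0.36 to 0.043 for S100A6, -0.18 to 0.00015 for S100A10, -0.086 to 0.069 for S100A11 and -0.30 to 0.26 for S100A16. For shEN1 #1 against shScr the ranges were -0.41 to 0.34 (S100A2), -0.29 to 0.045 (S100A6), -0.031 to 0.21 (S100A11) and -0.27 to 0.14 (S100A13). For shEN1 #2 against shScr they were -1.35 to 0.13 (S100A4), -1.07 to 0.28 (S100A6), -0.29 to 0.14 (S100A10), -0.29 to 0.025 (S100A11), -0.28 to 0.0063 (S100A13) and -1.25 to 0.23 (S100A16). Between constructs they were -1.07 to 0.42 (S100A4), -0.98 to 0.37 (S100A6), -0.21 to 0.21 (S100A10) and -0.27 to 0.15 (S100A13). A lone library of a construct is then assumed to vary like the other groups. The cause of these changes was not tested. Mean CPM of all 10 genes moved by less than 1 SD on library totals alone. S100A3, S100A14 and S100P are limited by depth.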
